A study of Mus musculus with 24 samples.

Results

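Hepcidin and the genes that carry, sense, store and export iron were followed in the liver and heart of mice whose mitochondrial DNA (mtDNA) had been exchanged between strains. The set holds 10 of the 15323 genes in the deposited table, picked by gene symbol: Hamp, Hamp2, Slc40a1, Trf, Tfrc, Tfr2, Scara5, Hfe, Fth1 and Ftl1. The choice was made with the values of all 24 libraries known, so the levels and differences of these 10 genes are given as a description and carry no test. A genotype such as NZB:C57 names the nuclear genome before the colon and the mtDNA after it. NZB:C57 mice carry the NZB nuclear genome with C57 mtDNA, and BL/6J:NZB mice carry the C57BL/6 nuclear genome with NZB mtDNA. Both are conplastic lines, bred by backcrossing for 10 generations, and they were set against the parental NZB:NZB and BL/6J:C57 strains. All animals were males aged 10 weeks, and each library came from an equal mix of RNA of 4 animals, with 3 such pools per genotype in each tissue. Liver was the median lobe and heart was the left ventricle, and polyadenylated RNA was sequenced. The 8 comparisons were, in each tissue, C57 against NZB mtDNA in NZB mice, NZB against C57 mtDNA in BL/6J mice, and NZB against BL/6J nuclear genomes on each mtDNA.

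Hepcidin is a small peptide hormone that hepatocytes release when iron is plentiful or inflammation is under way. It binds ferroportin, the iron exporter encoded by Slc40a1, and causes it to be taken in and degraded, which lowers the release of iron into plasma. Mice have a pair of hepcidin genes, Hamp and Hamp2, and Hamp is the one known to control body iron. Plasma iron travels on transferrin (Trf) and enters cells through transferrin receptor 1 (Tfrc), while transferrin receptor 2 (Tfr2) and the HFE protein (Hfe) act in hepatocytes as sensors upstream of hepcidin. The ferritin heavy and light chains (Fth1, Ftl1) form the shell that stores iron, and Scara5 is a receptor that takes up ferritin. Iron regulatory proteins bind hairpins called iron-responsive elements in several of these mRNAs when cellular iron is low, which blocks translation from elements in a 5′ UTR and stabilises the mRNA from elements in the 3′ UTR of Tfrc.

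The hepcidin genes lie beside each other on chromosome 7 of GRCm38, on the minus strand, with Hamp at 30942368 to 30944032 and Hamp2 at 30922372 to 30924681, and each has 3 exons. Both are overlapped on the opposite strand by the predicted gene Gm44662, and no source used here says whether the counting used strand. Their coding sequences match at 233 of 249 bases (93.57%) in the GENCODE vM21 transcripts of equal coding length. The last 75 coding bases, whose 25 codons encode the mature hormone, are shown because they hold most of the differing bases, and the 14 that differ stand in capitals.
Hamp: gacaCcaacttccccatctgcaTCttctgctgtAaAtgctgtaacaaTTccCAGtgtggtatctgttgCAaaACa
Hamp2: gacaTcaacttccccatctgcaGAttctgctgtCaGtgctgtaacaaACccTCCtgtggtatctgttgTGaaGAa
A read that spans such a base can be assigned to 1 of the 2 genes. Of the 31-base words in the transcripts, 33.68% of those of Hamp occur also in Hamp2, and 23.15% of those of Hamp2 occur also in Hamp, so reads from the shared stretches could be divided between the genes. The annotated sequence is that of C57BL/6J, and the NZB sequence of this region was not analysed here.

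The promoters are shown because the hepcidin genes differed between strains in opposite directions. Each run is the 200 bases that end 3 bases before the RefSeq start of the gene (GRCm38.p6, minus strand, chr7:30944033-30944232 for Hamp and chr7:30924185-30924384 for Hamp2). The Hamp run lies outside the gene interval given above. The Hamp2 run lies inside its interval, which begins further upstream than the RefSeq start. Which Hamp2 start is used in these tissues was not tested. Capitals mark the word GGCGCC, the core of the BMP-responsive element known in hepcidin promoters, and the word TTCTTGGAA, a STAT3-type site.
Hamp: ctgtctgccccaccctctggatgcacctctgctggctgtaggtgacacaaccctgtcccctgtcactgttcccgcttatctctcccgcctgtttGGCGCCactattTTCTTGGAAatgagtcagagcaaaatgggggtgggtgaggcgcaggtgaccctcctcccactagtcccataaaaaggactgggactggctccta
Hamp2: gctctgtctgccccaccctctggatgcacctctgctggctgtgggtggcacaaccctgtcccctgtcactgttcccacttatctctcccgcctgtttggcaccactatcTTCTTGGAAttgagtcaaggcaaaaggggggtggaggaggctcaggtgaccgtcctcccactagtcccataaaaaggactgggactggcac
The 2 promoters were identical at 183 of 197 aligned bases (92.89%). The word GGCGCC was at -109 to -104 from the Hamp start and was not in the Hamp2 run, where the aligned word differed by G4A, counted from 1 at the first base of the word. The word TTCTTGGAA was at -97 to -89 in Hamp and at -94 to -86 in Hamp2. Searched on both strands, with no overlap between the 2 words, GGCGCC occurred in 8.38% and TTCTTGGAA in 0.268% of 32851 RefSeq promoter windows of the same length. These matches are letters in a window and say nothing of whether a factor was bound.

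Of the other genes, 4 held a match to the iron-responsive element in a UTR, searched as C, any 5 bases, CAGTGN with N other than G, and 5 bases that pair with the first 5 (G-T pairs allowed). Searched over the whole length of all their protein-coding GENCODE transcripts, coding sequence included, 222 of 21901 genes (1.01%) held a match. That share is therefore not one for UTRs alone. The hairpin loop CAGTGN stands in capitals.
Slc40a1 5′ UTR: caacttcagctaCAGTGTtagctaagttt
Fth1 5′ UTR: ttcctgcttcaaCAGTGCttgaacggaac
Ftl1 5′ UTR: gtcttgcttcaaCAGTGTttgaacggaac
Tfrc 3′ UTR, element a: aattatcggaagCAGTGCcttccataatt
Tfrc 3′ UTR, element b: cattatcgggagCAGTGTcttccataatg
Tfrc 3′ UTR, element c: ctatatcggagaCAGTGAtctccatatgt
Tfrc 3′ UTR, element d: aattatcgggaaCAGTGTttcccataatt
Elements in the 5′ UTR act on translation, which mRNA counts do not measure.

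The libraries held 7294525 to 34974268 recovered reads in liver and 3714278 to 12949956 in heart, and values are normalised read counts. Livers and hearts showed their defining markers. The summed level of 10 hepatocyte markers was 114398 to 222336 in livers, and that of 10 cardiomyocyte markers was 30938 to 279361 in hearts. NZB:C57 hearts stood apart, with a cardiomyocyte sum of 270287 to 279361 against 30938 to 48317 in the other hearts, and their 20 most abundant genes took 33.4% to 34.1% of reads against 11.5% to 14.5%. Cardiomyocyte transcripts were also counted in 5 of 6 livers with the NZB nucleus, where the 10 markers summed to 49.55 to 165.5, against 0.314 in NZB:C57 liver replicate 1 and 0.335 to 1.22 in the 6 livers with the BL/6J nucleus, in which myoglobin (Mb) was at 0. The 11 female-biased liver genes summed to 79.7 to 363 in NZB:C57 livers, 1408 to 1851 in NZB:NZB livers, 24.8 to 36.9 in BL/6J:NZB livers and 29.0 to 39.2 in BL/6J:C57 livers, although all animals were males. The 11 male-biased liver genes summed to 9584 to 12900 in NZB:C57 and 3142 to 4448 in NZB:NZB livers. In BL/6J:NZB and BL/6J:C57 livers they summed to 61365 to 98052 and 59701 to 89180. The part of these patterns in the iron genes was not tested, beyond the values given beside single results.

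Hamp was low and Hamp2 high in livers with the NZB nucleus, and the reverse held in livers with the BL/6J nucleus, on either mtDNA. Hamp stood at 63.6, 54.5 and 95 in NZB:C57 livers, at 47.7, 28.8 and 73.0 in NZB:NZB livers, at 488, 443 and 648 in BL/6J:NZB livers and at 915, 860 and 749 in BL/6J:C57 livers. Every liver with the NZB nucleus was below every liver with the BL/6J nucleus, and the nearest libraries of the 2 sets were 95 and 443. The difference in log2(value + 1) was -3.45 (SE 0.27) for NZB:NZB against BL/6J:NZB and -3.58 (SE 0.27) for NZB:C57 against BL/6J:C57. In such bulk tissue, fewer cells of a type and less RNA per cell cannot be told apart.

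Hamp2 stood at 980, 786 and 485 in NZB:C57 livers, at 974, 788 and 983 in NZB:NZB livers, at 62.4, 64.4 and 104.5 in BL/6J:NZB livers and at 100.5, 93.2 and 80.3 in BL/6J:C57 livers. Here the livers with the NZB nucleus were all above those with the BL/6J nucleus. The log2 difference was 3.59 (SE 0.23) for NZB:NZB against BL/6J:NZB and 2.97 (SE 0.23) for NZB:C57 against BL/6J:C57. As a share of the reads of both genes, Hamp2 made up 83.6% to 96.5% in the 6 NZB-nucleus livers, with 95% Wilson intervals of 82.35% to 84.8% for the lowest and 96.06% to 96.85% for the highest, and 9.69% to 13.9% in the 6 BL/6J-nucleus livers, with intervals of 9.29% to 10.1% and 13.2% to 14.6%. These intervals cover counting error only.

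Hamp shares 33.68% of its 31-base words with Hamp2, and the NZB sequence of this region was not analysed. Whether reads of NZB mice were credited to the wrong gene was not tested, so the level of each gene alone is uncertain. The sum of the 2 genes hid their opposite differences. It was 1043, 840 and 580 in NZB:C57 livers, 1022, 817 and 1056 in NZB:NZB livers, 550, 507 and 752 in BL/6J:NZB livers and 1016, 953 and 829 in BL/6J:C57 livers. The NZB:C57 and BL/6J:C57 libraries overlapped, whereas all NZB:NZB libraries were above all BL/6J:NZB libraries, which were the lowest set. In BL/6J mice the sum followed Hamp. With NZB mtDNA, Hamp averaged 526.3 ± 107.7, against 841.1 ± 84.75 with C57 mtDNA (SD, n = 3 each). The libraries did not overlap, and the log2 difference was -0.69 (SE 0.27). For that pair the 12 acute phase genes had a median log2 difference of -1.015 (all genes -0.014), and 0 were called. Between nuclei their median was -0.252 on NZB mtDNA, with 1 called, lower, beside 24.9% of all genes. On C57 mtDNA it was -0.798, with 3 called, all lower, beside 27.9% of all genes. The part of the acute phase response in Hamp was not tested. In NZB mice the exchange of mtDNA left overlapping values of both genes, with log2 differences for NZB:C57 against NZB:NZB of 0.56 (SE 0.27) for Hamp and -0.34 (SE 0.23) for Hamp2.

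In hearts with the NZB nucleus most hepcidin reads were assigned to Hamp2, while hearts with the BL/6J nucleus held little of either gene. Hamp2 stood at 50.5, 54.7 and 63.8 in NZB:C57 hearts and at 24.1, 22.3 and 20.3 in NZB:NZB hearts, against 0.298, 0 and 0.86 in BL/6J:NZB hearts and 0, 0.159 and 0.185 in BL/6J:C57 hearts. These rest on 2099 reads in the 6 NZB-nucleus hearts, with 120 to 663 per library, and on 16 reads in the 6 BL/6J-nucleus hearts, of which 12 were in BL/6J:NZB replicate 3. In the 2 hearts at 0, a count of 0 allows up to 3 reads, a value of 0.273 to 0.476. No fold is given against the BL/6J hearts, since it would depend on the constant added before taking logs.

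Hamp2 was higher in NZB:C57 than in NZB:NZB hearts with no overlap (log2 difference 1.30, SE 0.19), and when scaled by library totals the difference was 0.62, where the median of all genes was -0.65. Hamp was low in all hearts, from 1.86 to 3.75 in the 6 with the NZB nucleus and from 0.636 to 2.36 in the 6 with the BL/6J nucleus, and these ranges overlap. They rest on 4 to 34 reads per library. Hepatocyte transcripts were also counted in hearts, where 10 hepatocyte markers summed to 46.44 to 96.73 in NZB:C57, 83.7 to 91.94 in NZB:NZB, 22.95 to 195.7 in BL/6J:NZB and 14.97 to 21.3 in BL/6J:C57 hearts. In NZB:C57 against BL/6J:C57 hearts Hamp was higher by 0.72 (SE 0.23). There 6 of 9 tested hepatocyte markers rose (median 1.04, all genes 0.008), beside 35.2% of all genes called in either direction. Their part in Hamp was not tested. These markers, none of which was at 0 in all libraries of a group, were at 0.0107% to 0.111% of their liver level in the same genotype. Heart Hamp2 was at 7.51% of its liver level in NZB:C57 mice and 2.43% in NZB:NZB mice, and the 16 reads of the BL/6J-nucleus hearts are too few for such a share. BL/6J:NZB heart replicate 3, with the most Hamp2 and Tfr2 reads among BL/6J-nucleus hearts, also had the most albumin (Alb) of all hearts (130.5).

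**Figure D1:**
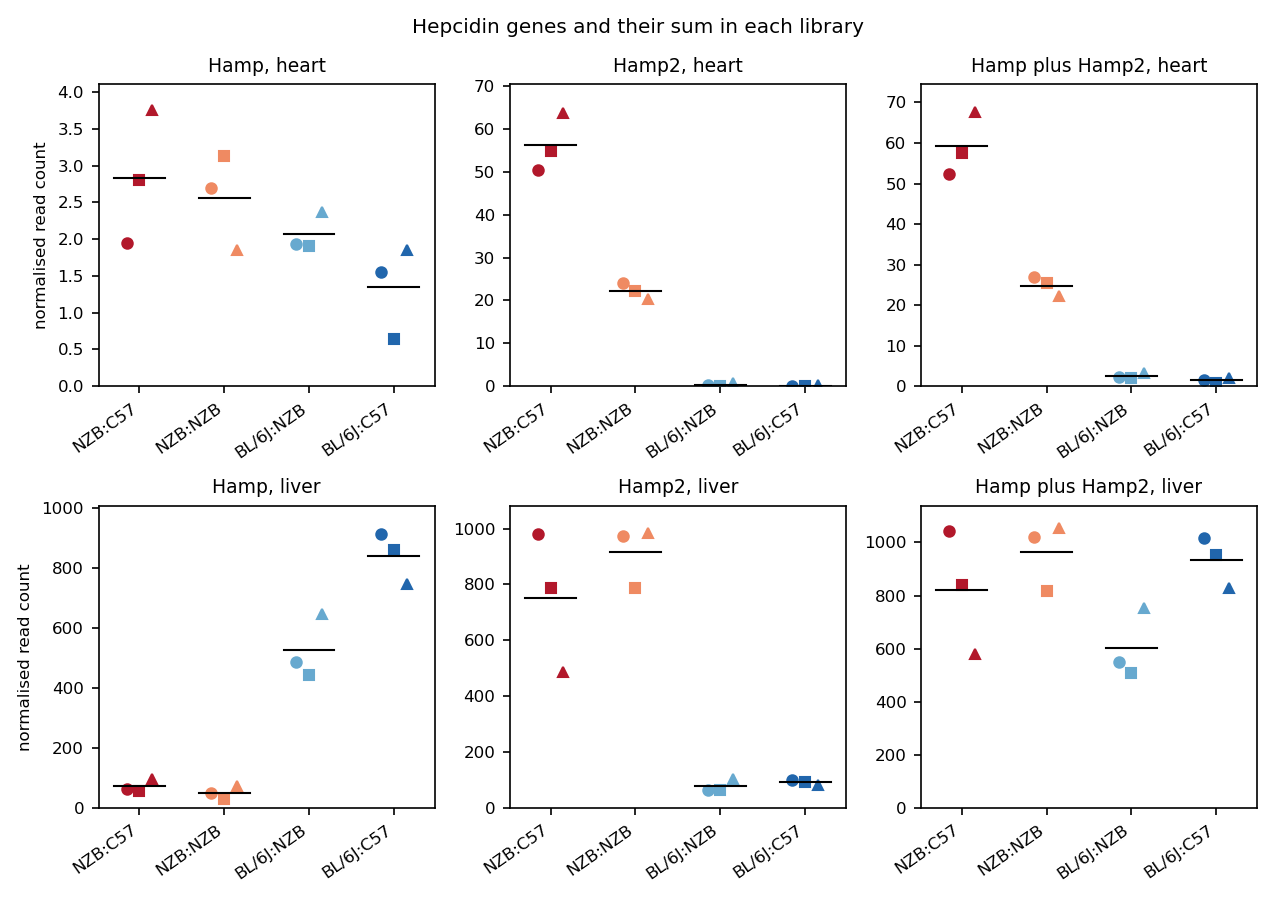
Normalised read counts (vertical axes, from 0) of Hamp, Hamp2 and their sum in hearts (upper row) and livers (lower row) of the 4 genotypes; each symbol is 1 library (circle, square and triangle for replicates 1, 2 and 3) and each bar is the mean of 3. In livers the counts assigned to Hamp and Hamp2 exchange places between NZB and BL/6J nuclei while the sum stays between 507 and 1056. In hearts Hamp2 is at 20.3 to 63.8 with the NZB nucleus. Whether reads of NZB mice were credited to the wrong gene was not tested.

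Ferroportin mRNA (Slc40a1, chromosome 1, 45908068 to 45926523, minus strand), the export target of hepcidin, varied 2.37-fold between the lowest and highest liver. It stood at 186, 162 and 145 in NZB:C57 livers, at 258, 197 and 252 in NZB:NZB livers, at 176, 150 and 183 in BL/6J:NZB livers and at 109, 132 and 169 in BL/6J:C57 livers. NZB:NZB livers were the highest set, above all libraries of the other 3 genotypes. On the log2 scale the difference was -0.52 (SE 0.16) for NZB:C57 against NZB:NZB and 0.47 (SE 0.16) for NZB:NZB against BL/6J:NZB. In heart NZB:NZB libraries were instead below those of BL/6J:NZB and NZB:C57, but they overlapped BL/6J:C57 hearts (20.3, 16.4 and 23.8). NZB:NZB hearts had 17.2, 12.2 and 14.4, against 18.5, 19.4 and 19.8 in BL/6J:NZB hearts (log2 difference -0.39, SE 0.14), and NZB:C57 hearts had 20.6, 17.7 and 17.2, above NZB:NZB hearts by 0.33 (SE 0.14). Scaled by library totals this last difference was -0.33, or 0.32 relative to the median of all genes. Ferroportin is also made by macrophages, whose 10 markers summed to 320.7 to 432.5 in NZB:C57, 314.5 to 414.1 in NZB:NZB, 375.6 to 505.0 in BL/6J:NZB and 317.7 to 438.2 in BL/6J:C57 livers, ranges that overlap. Within the sum the markers moved apart: in NZB:C57 against NZB:NZB livers 3 of 10 fell and 1 rose, with a median log2 difference of -0.45 (all genes -0.003), and Cd5l stood at 161.9 ± 35.43 in NZB:C57 against 69.89 ± 12.66 in NZB:NZB livers. Endothelial markers were lower too in NZB:C57 livers (5 of 8 fell, median -1.10), as were stellate cell and fibroblast markers (6 of 8 fell, median -0.98). In this comparison 8.09% of all genes were called in either direction. The endothelial sum, like Slc40a1, was highest in NZB:NZB livers, at 145.5 to 163.0 in NZB:C57, 285.9 to 326.9 in NZB:NZB, 179.1 to 260.7 in BL/6J:NZB and 117.3 to 186.5 in BL/6J:C57 livers. The part of these cell types in Slc40a1 was not tested.

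Transferrin (Trf, chromosome 9, 103204001 to 103230444, minus strand), the plasma iron carrier, was the most abundant of the 10 genes in liver. It stood at 29939, 34599 and 41648 in NZB:C57 livers, at 29700, 31445 and 29784 in NZB:NZB livers, at 17906, 18961 and 16913 in BL/6J:NZB livers and at 19540, 29016 and 22485 in BL/6J:C57 livers. All 6 NZB-nucleus livers were above all 6 BL/6J-nucleus livers, though 29700 and 29016 nearly met. Expressed as a log2 difference this was 0.76 (SE 0.18) for NZB:NZB against BL/6J:NZB and 0.59 (SE 0.18) for NZB:C57 against BL/6J:C57. Albumin differed the same way, at 127013 to 155398 in NZB-nucleus livers against 73553 to 80176 in BL/6J-nucleus livers. Of the 31-base words of Trf, 63.92% occur in other genes, chiefly in the overlapping readthrough gene Gm20425, which was counted at 10.1 to 45.1 in NZB-nucleus livers and 6.17 to 16.2 in BL/6J-nucleus livers. In hearts, Trf was at 44.3, 59.1 and 39.1 in NZB:C57, at 60.9, 64.9 and 50.9 in NZB:NZB, at 33.2, 38.6 and 63.5 in BL/6J:NZB and at 33.5, 29.4 and 27.2 in BL/6J:C57 mice, and the highest BL/6J:NZB value was again in replicate 3.

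Transferrin receptor 1 (Tfrc, chromosome 16, 32608920 to 32632794, plus strand), which brings transferrin iron into cells and carries the 4 elements shown above, was higher with the NZB nucleus in both tissues. It stood at 54.1, 81.5 and 103 in NZB:C57 livers, at 69.1, 121 and 84.1 in NZB:NZB livers, at 44.6, 35.2 and 34.2 in BL/6J:NZB livers and at 38.4, 45.4 and 28.9 in BL/6J:C57 livers. The NZB-nucleus livers lay above the BL/6J-nucleus livers without overlap, and mtDNA left overlapping values within either nucleus. The log2 difference was 1.21 (SE 0.24) for NZB:NZB against BL/6J:NZB and 1.04 (SE 0.24) for NZB:C57 against BL/6J:C57. Cardiomyocyte markers were also higher in these livers. In the first comparison 10 of 10 were, where 24.9% of all genes were called in either direction. In the second 9 of 10 were, beside 27.9%. Cardiac myosin (Myh6) was at 0 in NZB:C57 replicate 1, which had the lowest Tfrc of the NZB-nucleus livers (54.1), and at 0.03935% to 0.5039% of the heart level of the same genotype in the other 5. In NZB:NZB replicates 1, 2 and 3, Myh6 was at 42.31, 23.88 and 13.16, where Tfrc was at 69.1, 121 and 84.1. In NZB:C57 replicates 2 and 3, Myh6 was at 46.58 and 35.23, where Tfrc was at 81.5 and 103. In BL/6J-nucleus livers Myh6 was at 0 in 4 of 6 and at most 0.05578. The part of heart RNA in liver Tfrc was not tested.

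In hearts, Tfrc stood at 439, 338 and 349 in NZB:C57, at 360, 365 and 466 in NZB:NZB, at 249, 240 and 227 in BL/6J:NZB and at 251, 284 and 234 in BL/6J:C57 mice. Again the NZB-nucleus libraries were all above the BL/6J-nucleus libraries. In log2 terms the difference was 0.72 (SE 0.11) for NZB:NZB against BL/6J:NZB and 0.54 (SE 0.11) for NZB:C57 against BL/6J:C57. Scaled by library totals, the second became -0.05, where the median of all genes was -0.53, so that it was 0.49 relative to that median.

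Transferrin receptor 2 (Tfr2, chromosome 5, 137569840 to 137587481, plus strand), a hepatocyte iron sensor, was set apart by 1 genotype. It stood at 1237, 1281 and 1432 in NZB:C57 livers, against 259, 289 and 308 in NZB:NZB livers, 271, 328 and 343 in BL/6J:NZB livers and 359, 385 and 349 in BL/6J:C57 livers. The 9 livers of the other 3 genotypes together ranged from 259 to 385, below all 3 NZB:C57 livers. The log2 difference was 2.20 (SE 0.11) for NZB:C57 against NZB:NZB and 1.85 (SE 0.11) for NZB:C57 against BL/6J:C57. In hearts Tfr2 had 0 to 7 reads per library, 28 in all, and was below the level needed for the fit. The same 3 NZB:C57 livers did not stand out for Hfe, described next.

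The HFE gene (Hfe, chromosome 13, 23702034 to 23710854, minus strand), whose protein pairs with the transferrin receptors in iron sensing, was lower with the NZB nucleus in both tissues. In livers it stood at 42.5, 47.0 and 44.3 in NZB:C57, 48.7, 49.4 and 45.2 in NZB:NZB, 69.1, 62.7 and 59.5 in BL/6J:NZB and 64.0, 65.9 and 65.2 in BL/6J:C57 mice. In hearts it stood at 26.3, 25.3 and 25.8 in NZB:C57, 25.1, 21.4 and 23.3 in NZB:NZB, 35.8, 38.3 and 39.3 in BL/6J:NZB and 39.7, 44.2 and 43.4 in BL/6J:C57 mice. No NZB-nucleus library reached a BL/6J-nucleus library of the same tissue. The log2 differences between nuclei were -0.41 (NZB mtDNA) and -0.54 (C57 mtDNA) in liver and -0.68 and -0.69 in heart, each with an SE between 0.08 and 0.09.

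Ferritin heavy chain (Fth1, chromosome 19, 9980598 to 9985098, plus strand), the chain that oxidises iron for storage, was also lower with the NZB nucleus. In livers it stood at 1279, 1320 and 1332 in NZB:C57, 1285, 1277 and 1292 in NZB:NZB, 1623, 1541 and 1559 in BL/6J:NZB and 2080, 1728 and 1756 in BL/6J:C57 mice. The 6 NZB-nucleus livers spanned 1277 to 1332, the narrowest relative range of any of the 10 genes in either tissue within 1 nucleus. On the log2 scale the difference was -0.29 (SE 0.09) for NZB:NZB against BL/6J:NZB and -0.50 (SE 0.09) for NZB:C57 against BL/6J:C57, and in BL/6J mice NZB mtDNA went with lower values than C57 mtDNA in all libraries (-0.23, SE 0.09). In hearts the NZB-nucleus libraries held 861 to 1050, below the 1129 to 1277 of the BL/6J-nucleus libraries.

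Ferritin light chain (Ftl1, chromosome 7, 45457944 to 45459884, minus strand), the other ferritin subunit, did not follow Fth1. In livers the 6 NZB-nucleus libraries ran from 2992 to 3550, inside the 2867 to 4079 of the 6 BL/6J-nucleus libraries, with log2 differences of -0.01 (SE 0.13) on NZB mtDNA and -0.10 (SE 0.13) on C57 mtDNA. In hearts it was at 196, 290 and 232 in NZB:C57, 235, 245 and 224 in NZB:NZB, 193, 186 and 208 in BL/6J:NZB and 190, 172 and 182 in BL/6J:C57 mice. There the NZB-nucleus libraries were above those with the BL/6J nucleus on each mtDNA, by 0.26 (SE 0.10) on NZB mtDNA and 0.38 (SE 0.10) on C57 mtDNA. Scaled by library totals, the second became -0.21, or 0.33 relative to the median of all genes. Of the 31-base words of Ftl1, 64.15% occur in other genes, 33 in number and chiefly the pseudogene Ftl1-ps1, so its level is uncertain.

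Scara5 (chromosome 14, 65666403 to 65764826, plus strand), the ferritin receptor, had the widest range within a nucleus in liver, 23.8-fold among NZB-nucleus livers. It stood at 18.9, 17.1 and 51.4 in NZB:C57 livers, at 6.31, 2.16 and 5.31 in NZB:NZB livers, at 25.0, 13.3 and 10.4 in BL/6J:NZB livers and at 21.8, 59.9 and 26.5 in BL/6J:C57 livers. NZB:NZB livers were below all others. Expressed as a log2 difference this was 2.34 (SE 0.46) for NZB:C57 against NZB:NZB and -1.62 (SE 0.46) for NZB:NZB against BL/6J:NZB. The highest libraries, BL/6J:C57 replicate 2 and NZB:C57 replicate 3, were also those with the most serum amyloid mRNA of their nucleus (Saa1 at 7941 and 512), a marker of the acute phase response. All 12 acute phase genes were detected in livers, and their sum was 24525 to 54233 in NZB:C57, 23446 to 25732 in NZB:NZB, 19196 to 22526 in BL/6J:NZB and 25204 to 52496 in BL/6J:C57 livers. Without NZB:C57 replicate 3 the difference from NZB:NZB livers was 1.85, so the direction did not rest on that library.

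In hearts Scara5 was in the opposite order within the NZB nucleus. It stood at 16.1, 14.9 and 11.9 in NZB:C57 hearts, at 47.0, 47.0 and 50.0 in NZB:NZB hearts, at 18.6, 24.5 and 23.4 in BL/6J:NZB hearts and at 27.4, 26.4 and 18.7 in BL/6J:C57 hearts. NZB:NZB hearts were above and NZB:C57 hearts below all others. The log2 difference was -1.69 (SE 0.14) for NZB:C57 against NZB:NZB, 1.09 (SE 0.14) for NZB:NZB against BL/6J:NZB and -0.71 (SE 0.14) for NZB:C57 against BL/6J:C57. The 8 stellate cell and fibroblast markers, of which none was at 0 in all libraries of a group, summed to 2221 to 2480 in NZB:C57, 1759 to 1994 in NZB:NZB, 775 to 806 in BL/6J:NZB and 757 to 782 in BL/6J:C57 hearts. The order of these sums was not that of Scara5, and the part of these cells in Scara5 was not tested.

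**Figure D2:**
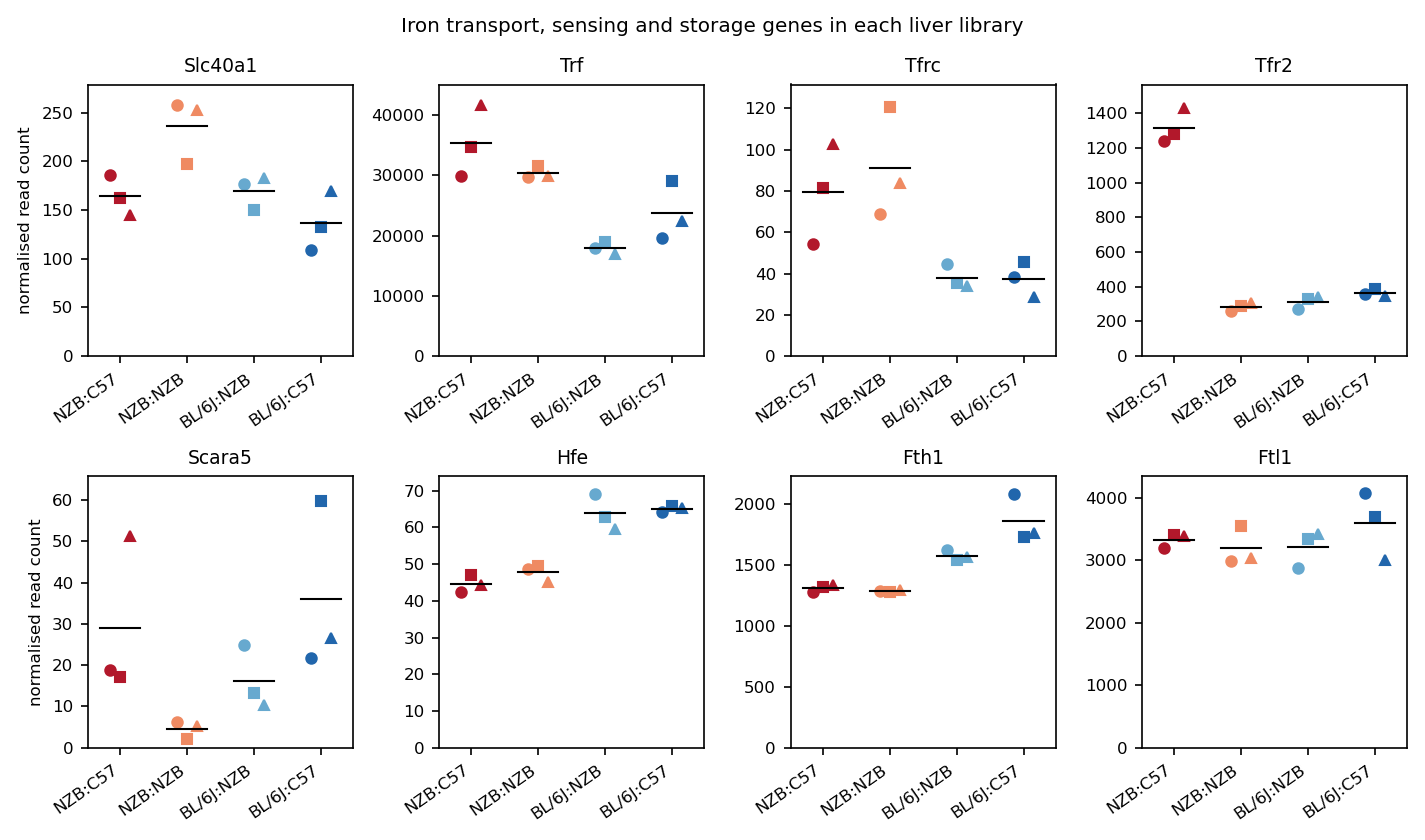
Normalised read counts (vertical axes, from 0) of the 8 other genes in the 12 liver libraries by genotype; each symbol is 1 library (circle, square and triangle for replicates 1, 2 and 3) and each bar is the mean of 3. Tfr2 is at 1237 to 1432 in NZB:C57 livers against 259 to 385 in the rest, Trf and Tfrc are higher and Hfe and Fth1 lower with the NZB nucleus, and Ftl1 overlaps throughout.

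**Figure D3:**
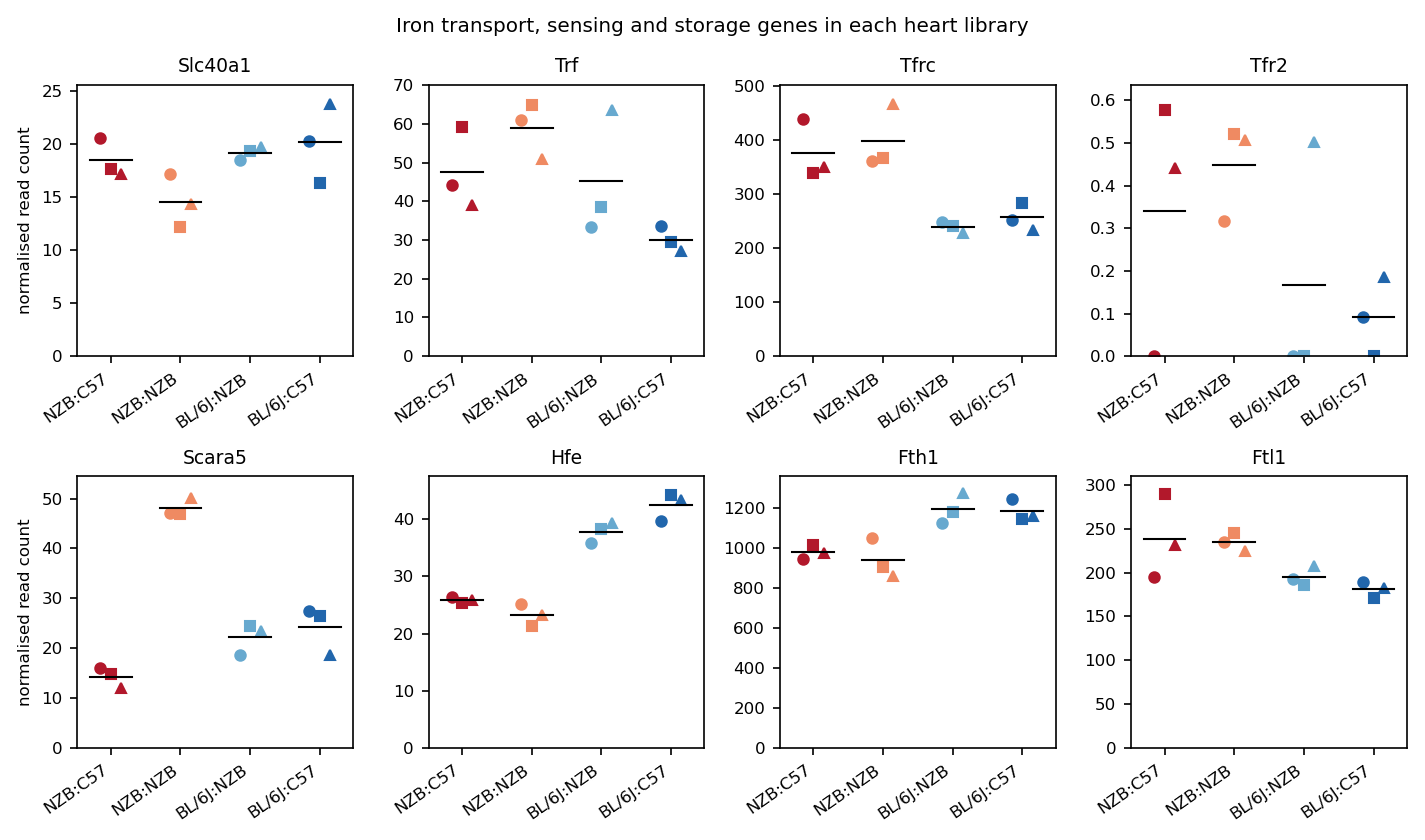
The same 8 genes in the 12 heart libraries, with the same symbols and axes from 0. Tfrc is higher and Hfe and Fth1 are lower with the NZB nucleus, Scara5 is highest in NZB:NZB (47.0 to 50.0) and lowest in NZB:C57 hearts (11.9 to 16.1), and Tfr2 is below 1 in every library.

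Set side by side, NZB:NZB and NZB:C57 livers shared high Hamp2, Trf and Tfrc and low Hamp, Hfe and Fth1 relative to the BL/6J livers on the same mtDNA. Slc40a1, Scara5 and Tfr2 differed without overlap between NZB:NZB and NZB:C57 livers, though Slc40a1 did not pass limma's threshold there. These genotypes are also separate lines, so mtDNA and line cannot be told apart. The comparisons share libraries, so they are not independent of each other. With limma at an adjusted p under 0.05, 8 of the 10 genes passed in NZB:NZB against BL/6J:NZB livers, where 24.9% of all tested genes passed, and 7 of 10 in NZB:C57 against BL/6J:C57 livers, where 27.9% passed. For C57 against NZB mtDNA in NZB livers 2 of 10 passed (4 when scaled by library totals), beside 8.09% of all genes. Without BL/6J:NZB replicate 1 the first count was 5. Nothing is read from these counts, since the genes were chosen on these values. For NZB against C57 mtDNA in BL/6J livers 0 of 10 passed with limma, edgeR or DESeq2, beside 0.0076% of all genes with limma. Of the 10, 3 had an unadjusted p under 0.05 with limma, 4 with edgeR and 3 with DESeq2. Of all 13159 tested genes, 1284 did with limma, 1311 with edgeR and 1141 with DESeq2.

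In heart 9 of the 10 genes were tested, since Tfr2 fell below the filter. Of these 6 passed in NZB:NZB against BL/6J:NZB hearts, beside 29.1% of all genes, 8 in NZB:C57 against BL/6J:C57 hearts (5 without NZB:C57 replicate 2), beside 35.2%, and 2 in NZB:C57 against NZB:NZB hearts, beside 15.9%. With library totals the second count was 5 and the third was 8. In BL/6J hearts 0 of 9 passed for NZB against C57 mtDNA with limma, edgeR or DESeq2, beside 0.935% of all genes with limma. Of the 9, 1 gene (Trf) was at an unadjusted p under 0.05 with limma and 2 with each of edgeR and DESeq2. Of all 13803 tested genes, 2340 were with limma, 2492 with edgeR and 1719 with DESeq2. The median log2 difference over the tested genes of the set was -0.070 in NZB:NZB against BL/6J:NZB livers (all genes -0.007) and 0.089 in NZB:C57 against BL/6J:C57 livers (all genes -0.025). In the same comparisons in heart it was 0.263 (all genes 0.024) and 0.381 (all genes 0.008). For the mtDNA comparisons it was 0.045 in NZB livers (all genes -0.003), 0.066 in NZB hearts (all genes -0.004), -0.227 in BL/6J livers (all genes -0.014) and 0.011 in BL/6J hearts (all genes 0.002).

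**Figure D4:**
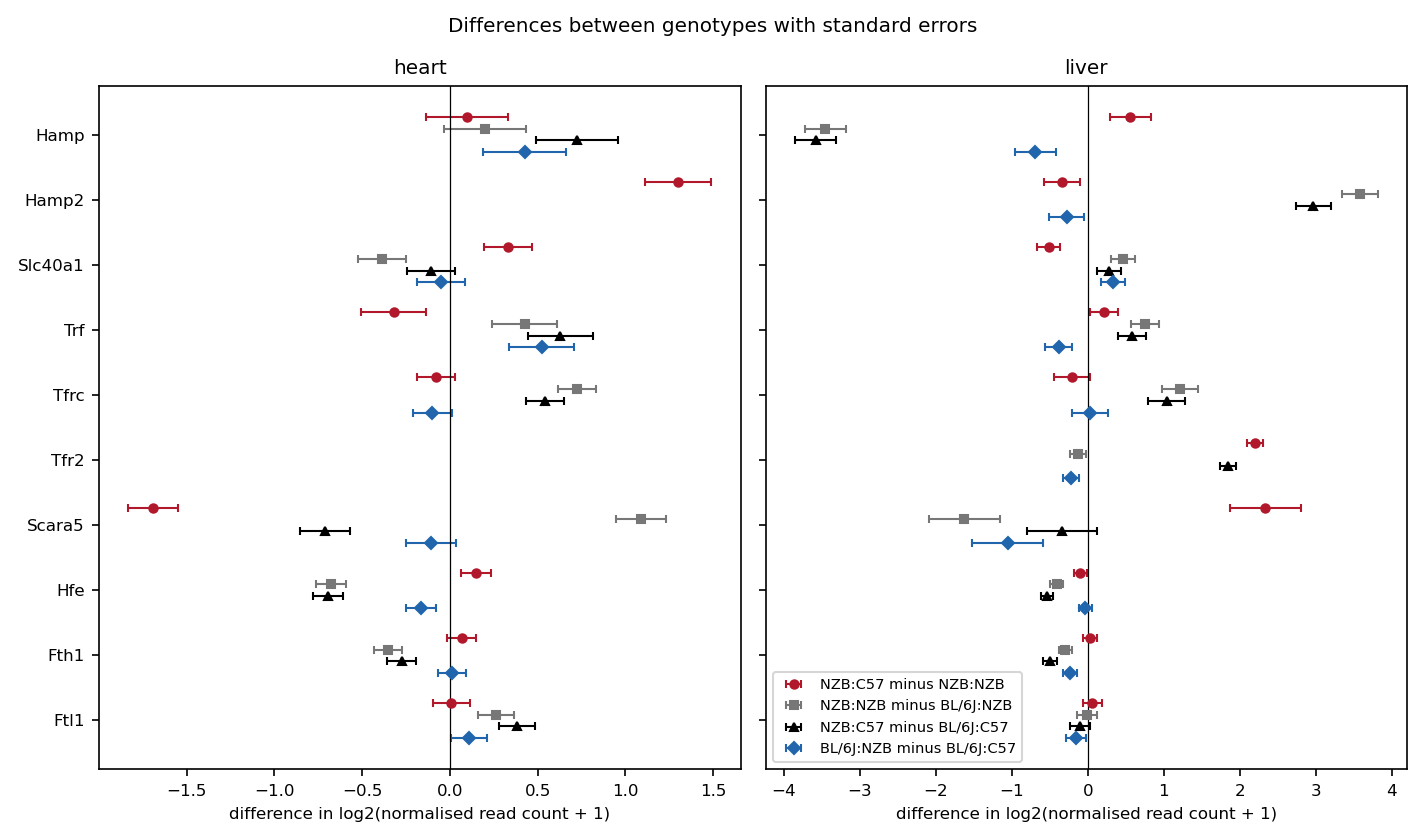
Difference in log2(normalised read count + 1) between genotypes (horizontal axis, with its own range in each tissue) for each gene in heart (left) and liver (right); points are limma estimates from 3 libraries a group and bars are standard errors. Differences between nuclei exceed those between mtDNA types for Hamp, Hamp2 and Tfrc in liver, whereas Tfr2 and Scara5 differ most between NZB:C57 and NZB:NZB livers; heart Tfr2, and heart Hamp2 where BL/6J hearts enter, are left out because of values near 0.

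Levels were compared between genes per kilobase of the longest principal transcript of each gene in GENCODE vM21. In all 4 genotypes Trf was first in liver, at 13767 ± 2293 per kb in NZB:C57, 11789 ± 382.8 in NZB:NZB, 6973 ± 398.5 in BL/6J:NZB and 9211 ± 1887 in BL/6J:C57 (SD, n = 3 each), and Ftl1 was second, at 3299 to 3711. The third place was held by Hamp2 in NZB-nucleus livers, at 1716 ± 570.5 in NZB:C57 and 2094 ± 252 in NZB:NZB, and by Hamp in BL/6J-nucleus livers, at 1284 ± 263 in BL/6J:NZB and 2051 ± 207 in BL/6J:C57. In BL/6J:NZB livers Hamp did not stand apart from Fth1, at 1054 ± 28.7 per kb. Further down, neighbours that overlapped were Tfrc, Hfe and Scara5 in NZB:C57 livers, Hamp and Tfr2 in NZB:NZB livers, and Scara5 and Tfrc in BL/6J:C57 livers.

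In hearts the order began with Fth1, at 629 to 801 per kb, and Ftl1, at 187 to 247. Next came Hamp2 in NZB:C57 hearts, at 129 ± 15.5 per kb, and Tfrc in the other 3 genotypes, at 48.8 to 81.2. Tfr2 was last in every genotype. Hamp, Hfe and Slc40a1 overlapped as neighbours in NZB:C57 and NZB:NZB hearts, Scara5, Slc40a1 and Hamp in BL/6J:NZB hearts, Hfe with Trf and Scara5 with Slc40a1 in BL/6J:C57 hearts, and Hamp2 with Tfr2 in the hearts of both BL/6J-nucleus genotypes.

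Between tissues of the same genotype, Tfrc was the one gene higher in heart than in liver in all 4 genotypes, with log2 differences for heart minus liver of 2.26 in NZB:C57, 2.14 in NZB:NZB, 2.63 in BL/6J:NZB and 2.76 in BL/6J:C57 mice (SE 0.20 each). Trf lay far below its liver level, at -8.66 to -9.56 (SE 0.19). Tfr2, with 0 to 7 reads per heart library, is given no difference, since it would depend on the constant added. Fth1 was at -0.40 to -0.64 (SE 0.08). The side on which Scara5 lay varied with genotype, since heart minus liver was -0.81 in NZB:C57, 3.22 in NZB:NZB, 0.51 in BL/6J:NZB and -0.44 in BL/6J:C57 mice (SE 0.38 each). The direction of the smaller differences depended on the scaling. With library totals Fth1 turned to 0.417 in NZB:NZB, 0.504 in BL/6J:NZB and 0.334 in BL/6J:C57 mice and was at -0.006 in NZB:C57 mice. Hfe, at -0.606 to -1.009 as deposited, turned to 0.145 in BL/6J:NZB and 0.351 in BL/6J:C57 mice, and Scara5 turned to 0.50 in BL/6J:C57 mice. Tfrc stayed higher in heart in all 4 genotypes, by 2.67 to 3.72.

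The 12 livers hold 6 with each nucleus, so a gene that differs between the nuclei tends to be like Hamp or its mirror image. Over the 12 livers, Pearson's r of log2(value + 1) with Hamp was highest for Tusc2 (0.987), Mecr (0.983), Nlrc5 (0.983), Col5a3 (0.983) and Tpd52l1 (0.981), and lowest for Fam83f (-0.984), Zfp369, Eif3s6-ps2, Trib2 and Acss3 (-0.978 each), among 12044 genes. In all, 456 genes had an r above 0.9 with Hamp. With Tfrc, r was highest for Kmt5a (0.964), Rundc3b (0.955), Golm1 (0.949), Nup188 (0.946) and Sh3bp1 (0.935), and 55 genes were above 0.9. Libraries of 1 genotype share their strain, so these values describe the 12 libraries only.

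Beyond the 10 genes, 71 other iron genes from 5 lists were in the table, of 73 names, and 70 were tested in each tissue. Between nuclei, 22 of 70 passed in NZB:NZB against BL/6J:NZB livers (6 higher, 16 lower), beside 24.9% of all genes, and 26 of 70 in NZB:C57 against BL/6J:C57 livers (7 higher, 19 lower), beside 27.9%. In the first, leaving out 1 library left 11 to 17, namely 11 when NZB:NZB replicate 1 or BL/6J:NZB replicate 3 was dropped, 12 for NZB:NZB replicate 2 and 14 for BL/6J:NZB replicate 2. In that comparison 10 were higher and 9 lower when scaled by library totals. The genes named below for comparisons between nuclei stayed past limma's threshold with any single library left out, and p-values measure the spread between pools of animals.

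Of the 20 genes that control hepcidin, 4 (20%) changed in NZB:NZB against BL/6J:NZB livers (1 higher, 3 lower), beside 24.9% of all genes, and 5 (25%) in NZB:C57 against BL/6J:C57 livers (3 higher, 2 lower), beside 27.9%. Neither share was above that of all genes. Atoh8, a transcription factor that activates hepcidin transcription, fell in both, to 9.48 ± 3.50 in NZB:NZB against 21.3 ± 2.30 in BL/6J:NZB livers (log2 fold change -1.14, SE 0.21, adjusted p = 0.00128) and to 10.8 ± 2.34 in NZB:C57 against 22.7 ± 1.33 in BL/6J:C57 livers (-1.02, adjusted p = 0.00257). Hfe2, the symbol in the table for hemojuvelin, a BMP co-receptor, fell in both as well, by 0.49 and 0.51 (adjusted p = 0.00509 and 0.00355). Tmprss6, a protease that cleaves hemojuvelin and so lowers hepcidin, rose in NZB:C57 livers to 703 ± 19.9 against 457 ± 40.4 in BL/6J:C57 livers (0.62, adjusted p = 0.000443). The median log2 fold change of the list was 0.13 and 0.07 in the 2 comparisons.

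Of the 15 tested transport genes, 5 (33.33%) changed in NZB:NZB against BL/6J:NZB livers (4 higher, 1 lower), beside 24.9% of all genes, and 6 (40%) in NZB:C57 against BL/6J:C57 livers (3 each way), beside 27.9%. Steap2, a metalloreductase, rose in the first by 0.73 (adjusted p = 0.00486), and Cd163, the macrophage receptor for haemoglobin bound to haptoglobin, rose by 0.99 (adjusted p = 0.00504). Steap3, the reductase of endosomal iron, rose in the second by 0.56 (adjusted p = 0.00346). The macrophage marker sums given above overlapped between these livers, and their part in Cd163 was not tested.

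Ncoa4, the receptor that delivers ferritin for breakdown, had the largest fold among the intracellular iron genes. It fell to 19.3 ± 4.96 in NZB:NZB against 182.5 ± 11.3 in BL/6J:NZB livers (-3.21, SE 0.19, adjusted p = 2.58e-08) and to 13.3 ± 3.41 against 74.05 ± 4.95 in the hearts of the same genotypes (-2.42, SE 0.22, adjusted p = 1.98e-07). Ncoa4 shares 18.82% of its 31-base words with other genes, chiefly the predicted gene Gm6768, which was at 175 to 196 in NZB-nucleus livers and 60.0 to 78.8 in NZB-nucleus hearts and at 0 in all 12 BL/6J-nucleus libraries. The sum of the 2 was 193.5 to 218.8 in NZB-nucleus livers against 168 to 208 in BL/6J-nucleus livers, and 76.4 to 89.5 against 69.1 to 85.1 in hearts, ranges that overlap in both tissues. The level of Ncoa4 alone is therefore uncertain.

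Of the 9 heme synthesis genes, 3 (33.33%) changed in NZB:NZB against BL/6J:NZB livers (1 higher, 2 lower), beside 24.9% of all genes, and 5 (55.56%) in NZB:C57 against BL/6J:C57 livers (1 higher, 4 lower), beside 27.9%. Alas2, the erythroid form of the first enzyme of the pathway, fell to 20.3 ± 4.69 in NZB:NZB against 188 ± 10.8 in BL/6J:NZB livers (-3.17, SE 0.16, adjusted p = 5.4e-09) and to 20.03 ± 4.06 in NZB:C57 against 179 ± 19.2 in BL/6J:C57 livers (-3.11, adjusted p = 7.14e-09). The 6 erythroid markers measured did not show that order, with sums of 466.0 to 903.4 in NZB:C57, 1012 to 1394 in NZB:NZB, 626.8 to 797.3 in BL/6J:NZB and 433.3 to 809.5 in BL/6J:C57 livers. The part of erythroid cells in Alas2 was not tested. In hearts Alas2 was at 36.5 to 179 with the NZB nucleus and 29.9 to 78.2 with the BL/6J nucleus, ranges that overlap. Alad, the enzyme of the next step, rose in both liver comparisons, by 0.73 and 0.48 (adjusted p = 0.000321 and 0.00673).

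All called genes of iron-sulfur cluster assembly fell. In livers these were 6 of 14 (42.86%) in NZB:NZB against BL/6J:NZB, beside 24.9% of all genes, and 7 of 14 (50%) in NZB:C57 against BL/6J:C57, beside 27.9%. In hearts they were 7 of 14 (50%) in the first comparison, beside 29.1%, and 5 of 14 (35.71%) in the second, close to the 35.2% of all genes. Isca1, a scaffold protein, fell by 0.76 and 0.70 in livers (adjusted p = 3.55e-05 and 7.22e-05) and by 0.66 and 0.78 in hearts (adjusted p = 1.68e-06 and 9.04e-08). Isca1 shares 17.4% of its words, chiefly with AK157302, which was at 9.95 to 13.7 in NZB-nucleus livers and 41.4 to 55.5 in NZB-nucleus hearts, against 0 in BL/6J-nucleus livers and at most 0.09115 in BL/6J-nucleus hearts, so its level is uncertain. Iscu, the main scaffold, fell in livers by 0.47 and 0.60 (adjusted p = 0.00477 and 0.000747) and shares 18.5% of its words with other genes, chiefly Gm16437. Bola3, which helps pass clusters to their targets, fell in NZB:NZB against BL/6J:NZB livers by 0.53 and hearts by 0.54 (adjusted p = 0.00743 and 0.000231).

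In hearts, 31 of 70 other iron genes passed in NZB:NZB against BL/6J:NZB (16 higher, 15 lower), beside 29.1% of all genes, and 30 of 70 in NZB:C57 against BL/6J:C57 (14 higher, 16 lower), beside 35.2%. Hfe2 fell in both, to 130.3 ± 2.89 in NZB:NZB against 221 ± 14.5 in BL/6J:NZB hearts (-0.76, adjusted p = 1.58e-07) and to 133 ± 3.59 in NZB:C57 against 237 ± 9.48 in BL/6J:C57 hearts (-0.83, adjusted p = 1.79e-08). Ceruloplasmin (Cp), a ferroxidase that works with ferroportin, fell by 0.75 and 0.50 (adjusted p = 3.32e-07 and 1.88e-05), and Cd163 rose by 0.96 and 1.17 (adjusted p = 8.28e-05 and 3.99e-06). Of the 10 macrophage markers, 7 were tested in heart, and 5 and 7 of these rose in the same comparisons, while Clec4f and Cd5l were at 0 in single hearts. The sum of the 10 was higher too, at 210.8 to 245.5 in NZB:C57 and 181.3 to 206.4 in NZB:NZB hearts, against 123.9 to 154.0 in BL/6J:NZB and 143.2 to 152.1 in BL/6J:C57 hearts, and their part in Cd163 was not tested. Scaled by library totals, 21 were higher and 13 lower in NZB:NZB against BL/6J:NZB hearts, where the median of all genes was 0.11, and 4 were higher and 52 lower in NZB:C57 against BL/6J:C57 hearts, where it was -0.53.

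For mtDNA within a nucleus, few other iron genes passed. In NZB hearts 9 of 70 did (4 higher, 5 lower), beside 15.9% of all genes, and 4 passed without NZB:NZB replicate 3. Scaled by library totals, 2 were higher and 58 lower, where the median of all genes was -0.65. Bmp6, the ligand that signals iron load to hepcidin, rose to 29.7 ± 2.77 in NZB:C57 against 13.1 ± 2.78 in NZB:NZB hearts (1.14, SE 0.13, adjusted p = 3.72e-06), and hephaestin (Heph), a ferroxidase, rose to 9.81 ± 2.44 against 3.24 ± 0.471 (1.33, SE 0.20, adjusted p = 7.47e-05). In the same comparison 5 of 6 tested endothelial markers rose (median 0.75) and 10 of 10 cardiomyocyte markers rose (median 2.925), with endothelial sums of 1212 to 1397 in NZB:C57 against 762.9 to 855.6 in NZB:NZB hearts, and their part in Bmp6 and Heph was not tested. Steap4, a metalloreductase, fell by 0.605 (adjusted p = 0.000462). In NZB livers 2 of 70 passed, beside 8.09%, both lower: Bmp6, at 1.28 ± 0.776 in NZB:C57 against 2.98 ± 0.503 in NZB:NZB livers (adjusted p = 0.0474), and Steap2 (adjusted p = 0.0342). Each of these lost its call without any of 5 of the 6 libraries, with adjusted p up to 0.183 and 0.132. Endothelial markers were lower with Bmp6 in these livers, as given beside Slc40a1.

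In BL/6J hearts 2 of 70 passed, beside 0.935%, both lower with NZB mtDNA: Stat3, the signal transducer of interleukin-6, at 113 ± 11.3 in BL/6J:NZB against 152 ± 10.4 in BL/6J:C57 hearts (adjusted p = 0.0423), and the metal transporter Slc39a14, at 51.6 ± 4.07 against 73.6 ± 10.5 (adjusted p = 0.0421). Both lost the call, with adjusted p up to 0.176, once BL/6J:NZB replicate 2 or 3 or BL/6J:C57 replicate 1 or 3 was dropped. In BL/6J livers 0 of 70 passed with limma, edgeR or DESeq2, beside 0.0076% of all genes with limma, and 15 had an unadjusted p under 0.05 with each tool. Of all 13159 tested genes, 1284 had such a p with limma, 1311 with edgeR and 1141 with DESeq2.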

How the data were processed

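Polyadenylated RNA of 24 pools (8 groups of 3) was sequenced. Per the submitters' processing notes, cutadapt 1.2.1, RSEM 1.2.3, Bowtie2 2.0.6, edgeR and the GRCm38 build were used, with roles not given. The deposited values are a signal that the authors had already normalised between libraries, and no source used here gives the normalisation factor. The values were whole multiples of 1 read in each library (100% of 367752 values, within 0.01), so reads could be recovered. Gene symbols came from GENCODE vM21 for 15106 genes (98.58%).

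Because the values are normalised, limma 3.58.1 in R 4.3.3 was used on log2(value + 1) in place of a count test. It was fitted to the 12 libraries of a tissue over genes that reached a value of 1 in 3 or more libraries (13159 in liver, 13803 in heart), and a log2 difference on this scale understates the change of low genes. Benjamini-Hochberg adjustment covered every tested gene, and an adjusted p under 0.05 counted as a call. Heart minus liver came from 1 fit to 24 libraries. edgeR 4.0.16 and DESeq2 1.42.0 on recovered reads, another pseudocount, no filter, library totals, a replicate block, the compared libraries alone and leaving out each library were alternatives. The fit was tested on simulated data.

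The 10 genes, the lists and the tests were chosen with earlier results of these data known. Up to 4 called genes per list and comparison, by smallest p, could be named. One erythroid marker is not reported here. The labels do not state that replicate numbers pair samples. Numbers were treated as pairing where every same-numbered correlation of deviations passed 0.1, a rule applied to these same data. It held for NZB:NZB against BL/6J:NZB livers (0.232, 0.222 and 0.193). The main fit used no pairing. Promoters came from RefSeq (GRCm38.p6), found for 7 of the 10 genes, and were read with Biopython 1.88. Titles number BL/6J-nucleus libraries as mix and NZB-nucleus libraries as rep, and no label says what this marks.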

Additional observations from a re-analysis of the deposited data

Results flagged for a closer look

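Several differences lay in opposite directions in all samples of 2 settings. These differences for the 10 genes were not tested, and groups of 3 were not examined for single outlying samples. For Hamp, NZB against C57 mtDNA in the BL/6J nucleus gave a log2 difference of -0.69 in liver and 0.425 in heart (liver minus heart -1.114). NZB against BL/6J nucleus on C57 mtDNA gave -3.581 in liver and 0.723 in heart (-4.304). Heart Hamp rests on 4 to 34 reads per library. In the first contrast 0 of 9 tested hepatocyte markers were called in heart (median 0.94, all genes 0.002), beside 0.935% of all genes. In the second 6 of 9 were higher in NZB:C57 than in BL/6J:C57 hearts (median 1.04, all genes 0.008), beside 35.2%. The part of hepatocyte RNA in heart Hamp was not tested. For Slc40a1, NZB against C57 mtDNA in the NZB nucleus gave 0.516 in liver and -0.333 in heart (0.85), and NZB against BL/6J nucleus on NZB mtDNA gave 0.466 in liver and -0.388 in heart (0.854).

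Scara5 did so in 3 settings. Between nuclei in heart the difference was 1.089 on NZB mtDNA and -0.711 on C57 mtDNA (1.8). NZB against C57 mtDNA in the NZB nucleus gave -2.338 in liver and 1.691 in heart (-4.029). NZB against BL/6J nucleus on NZB mtDNA gave -1.623 in liver and 1.089 in heart (-2.712).

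Among the other iron genes, the effect of NZB against C57 mtDNA in heart differed between the BL/6J and the NZB nucleus by limma's interaction term, adjusted over all genes. The difference of the effects (BL/6J minus NZB nucleus) was 1.275 for Bmp6 (adjusted p = 0.000103), -0.702 for Stat3 (adjusted p = 0.00071), 1.48 for Heph (adjusted p = 0.00132) and -0.691 for Steap4 (adjusted p = 0.00468). It was -0.525 for Lrp1 (adjusted p = 0.0281), -0.491 for Slc39a14 (adjusted p = 0.0367) and -0.412 for Ireb2 (adjusted p = 0.0372).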

How the results depend on the processing

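Of the values for the 10 genes between genotypes, 989 moved by less than the spread between replicates and 34 moved by more. A further 2, past the threshold in the main fit, reversed. Differences not past the threshold also changed sign in places and are not counted as reversed. With library totals Slc40a1 went from 0.333 to -0.333 in NZB:C57 against NZB:NZB hearts. Leaving out 1 library took Scara5 from -0.339 to as high as 0.088 in NZB:C57 against BL/6J:C57 livers. For other named iron genes 1053 kept direction and call, 141 lost the call and 3 reversed. All 5 reversals of called differences came with library totals, in hearts: Il6st to -0.268 and Smad6 to -0.103 (NZB:C57 against NZB:NZB), and Tfrc to -0.045, Ftl1 to -0.206 and Fkbp1a to -0.143 (NZB:C57 against BL/6J:C57). Under that scaling the median of all genes was -0.651 and -0.531 in these comparisons, and -0.222 in NZB:C57 against NZB:NZB livers.

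Counts of other iron genes past the threshold moved as follows, and the cause was not tested. In NZB:C57 against NZB:NZB livers, 2 became 1 with a pseudocount of 0.25, 0 with no filter, 18 with library totals, 5 with the 6 compared libraries alone, 1 with edgeR and 4 with DESeq2. In NZB:C57 against BL/6J:C57 livers, 26 became 17 with the 6 compared libraries alone. In BL/6J:NZB against BL/6J:C57 hearts, 2 became 0 with no filter, 0 with the replicate block and 0 without the NZB:C57 libraries in the fit, an alternative chosen after seeing the data. In NZB:C57 against NZB:NZB hearts, 9 became 60 with library totals and 5 with the replicate block. In NZB:C57 against BL/6J:C57 hearts, 30 became 56 with library totals. Positive heart minus liver differences of the 10 genes were 6 of 40, and 12 with library totals, where Fth1 turned in 3 genotypes, Hfe in 2 and Scara5 in 1. Over the alternatives, 47 such values moved by more than the spread between replicates and 73 by less.

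Leaving out 1 library gave 0 to 1 in BL/6J:NZB against BL/6J:C57 livers, 0 to 2 in NZB:C57 against NZB:NZB livers, 11 to 17 in NZB:NZB against BL/6J:NZB livers and 19 to 32 in NZB:C57 against BL/6J:C57 livers. In hearts the same comparisons gave 0 to 3, 4 to 7, 25 to 34 and 20 to 27. In the comparison treated as paired, NZB:NZB against BL/6J:NZB livers, the replicate block left 18 of 22, though no label states a pairing. In the other comparisons the rule for treating numbers as pairing was not met. Few reads limit heart Hamp (4 to 34 per library), heart Tfr2 (0 to 7) and Hamp2 in BL/6J-nucleus hearts (0 to 12).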
